A study of Mus musculus with 9 samples.

Results

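In mouse embryonic stem cells (ESCs), 82 of 15074 genes were lower in both *Dnmt1* mutant lines than in wild type at every time sampled. A gene was taken as a member when its log2(FPKM + 1) was lower by 0.5 or more in 1KO than in WT and in 1KO+1CI than in WT at each of days 0, 2 and 4, which makes 6 differences. FPKM is the number of RNA fragments divided by the length of the transcript and the size of the library, so it is a level per length. Genes whose symbol begins with Mir or Snord were left out by the rule, as were 2 further genes that passed it. The members were thus chosen by those 6 differences, which are given below as a description only. Of the 82 genes, 69 (84.1%) lay on chromosome 8 and 13 lay elsewhere.

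The study asked which activities of DNMT1 need its catalytic site, and RNA-seq was made for 3 lines at 3 times, with 1 library for each of the 9 conditions. WT cells are J1 ESCs. 1KO cells are *Dnmt1*-/- ESCs of the J1 background, and 1KO+1CI cells are 1KO ESCs that also carry a transgene for DNMT1 with the C1229S substitution, which removes its catalytic activity, under the ubiquitous CAG promoter. Undifferentiated cells (day 0) were kept on mitotically inactivated mouse embryonic fibroblast feeders in serum with LIF, and for days 2 and 4 the feeders were depleted and cells were led towards epiblast-like cells (EpiLCs) through embryoid bodies. The column names of the 1KO+1CI libraries carry a number, taken here as that of 1 clone, and each genotype is represented by 1 line. Differences between lines therefore have no replicate error, no test was made, and a property of the line and an effect of its genotype cannot be told apart. The WT libraries are shared by both differences of a day. The 1KO+1CI line was made from 1KO cells, so the mutant lines are not independent and a property of 1KO may be present in both. RNA was extracted from whole cultures, so fewer cells of a type and less RNA per cell cannot be told apart either.

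DNMT1 copies the methylation of CpG sites onto the new DNA strand after replication, and methylation of a CpG-rich promoter is known to go with silencing. Loss of the enzyme is best known for releasing genes and retrotransposons from silencing. Genes of 1 chromosome share its number of copies in the cell, and mouse ESC lines are known to gain or lose whole chromosomes in culture, chromosome 8 among them. No measurement of DNA was used here, and the number of copies of chromosome 8 in the 3 lines was not tested.

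*Dnmt1* followed the labels and was at 74.0, 80.4 and 48.5 FPKM at days 0, 2 and 4 in WT, against 13.7, 17.4 and 12.3 in 1KO and 315, 129 and 158 for 1KO+1CI. The pluripotency gene *Pou5f1* stood between 632 and 1008 FPKM in all 9 libraries. Y-linked genes were lower in WT than in the mutant lines at each day. *Ddx3y* was at 3.84 to 7.28 FPKM in WT and at 13.4 to 25.3 in the mutant lines, and *Uba1y* at 0.792 to 2.15 against 8.11 to 16.3. For *Eif2s3y* the ranges overlapped, with 32.9 in WT at day 0 and 31.2 in 1KO+1CI at day 4. The same held for *Uty*, with 4.90 in WT at day 2 and 4.32 in 1KO at day 0. Fibroblast markers were detected at all days, with the type I collagen gene *Col1a1* between 3.76 and 76.0 FPKM. The summed FPKM of 30 fibroblast markers at days 0, 2 and 4 was 1073, 623 and 611 for WT. It was 1704, 561 and 659 for 1KO and 1996, 710 and 1364 for 1KO+1CI. Both mutant lines were thus above WT at days 0 and 4, and 1KO was below WT at day 2. None of the 82 genes was on the fibroblast list, and the part of feeder cells or of the Y-linked difference in the results was not tested. If the smallest step between values is 1 read, the libraries held 20100000 to 28000000 counted reads. Between 44.8% and 50.3% of the 824 to 883 genes searched came within 0.1 of a whole read at that depth, where 20% would by chance, so the depth is approximate.

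Chromosome 8 carried 5.38% of the genes with a known position. Of its 809 genes, 69 were members (8.53%), against 13 of 14237 genes on the other chromosomes (0.0913%), and 0.544% of all genes. A gene had to reach 0.414 FPKM in each WT library to be able to meet the rule, and with this limit the shares were 9.93% of 695 genes on chromosome 8 and 0.113% of 11498 elsewhere, beside 0.671% of all 12214 such genes. The mirrored rule, with values higher in both mutant lines at all days, held for 92 genes, and 0 of them lay on chromosome 8. In single comparisons over all genes, 11.1%, 7.18% and 5.32% were lower by 0.5 or more in 1KO than in WT at days 0, 2 and 4, and 12.5%, 7.91% and 8.33% in 1KO+1CI.

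The members on chromosome 8 were part of a difference that ran over the whole chromosome. Over its 695 genes high enough in WT, the median difference in log2(FPKM + 1) from WT was −0.48, −0.50 and −0.49 in 1KO at days 0, 2 and 4, and −0.56, −0.48 and −0.50 in 1KO+1CI. The medians of the other 18 autosomes and the X chromosome lay between −0.09 and 0.13 in the same 6 comparisons, and the 4 genes of the Y chromosome that were high enough in WT had medians of 0.97 to 1.12. As a linear ratio of FPKM, the chromosome 8 median ran from 0.641 to 0.685 of WT, and the medians of those autosomes and the X chromosome from 0.926 to 1.11. Between 87.9% and 90.6% of the chromosome 8 genes were below WT in a comparison, against 33.5% to 60.2% on the other autosomes and the X chromosome. In all 6 comparisons 493 of the 695 genes were below WT (70.9%), against 1063 of 11498 genes elsewhere (9.25%). Summed over its genes, chromosome 8 took 5.97% to 7.01% of all FPKM in the WT libraries, 4.20% to 4.79% for 1KO and 4.21% to 4.72% for 1KO+1CI. These ranges did not overlap between WT and either mutant line. Lack of overlap was not particular to chromosome 8, as chromosomes 1, 2, 6 and Y also had it, with the mutant lines higher. On chromosome 6 the share was 4.02% to 4.10% for WT, 4.14% to 4.43% for 1KO and 4.26% to 4.48% for 1KO+1CI. These values come from the differences the rule used, so they describe the libraries and test nothing.

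**Figure D1:**
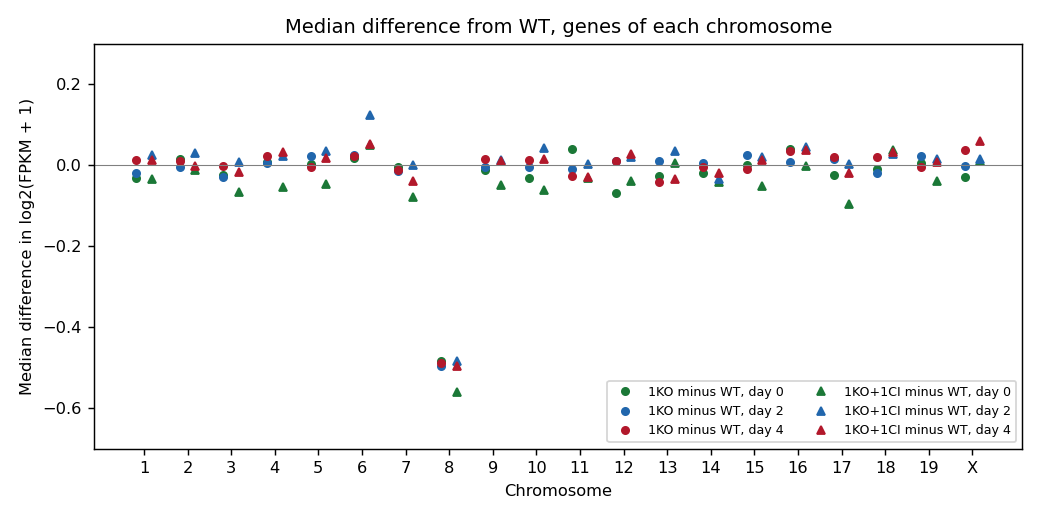
Median difference in log2(FPKM + 1) from WT (y axis) for the genes high enough in WT on each of the 19 autosomes and the X chromosome (x axis, the Y chromosome with 4 such genes not drawn), with circles for 1KO, triangles for 1KO+1CI and colours for the day, 1 library per condition. The 6 points of chromosome 8 lie between −0.56 and −0.48, and the points of the other chromosomes drawn between −0.09 and 0.13.

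The lower level was spread along the chromosome. In 13 windows of 10 Mb, each with 11 to 110 genes, all medians were below 0 in all 6 comparisons, and the median over the 6 ran from −0.56 to −0.39 between windows. Members lay in 12 of the 13 windows, with 0 to 10 each, from *Zfp358* starting at 3493138 to *Gm32856* ending at 129282844 (GRCm38). The longest stretch without a member was 24.0 Mb, between *Vdac3* and *Cenpu*. Of the 69 members, 36 were on the plus strand and 32 on the minus strand. Another member lay within 1 Mb of 59 of the 69, and of 0 of the 13 on other chromosomes. The 69 share 1 chromosome and the 13 are spread over others, so this contrast depends on density. Whether members cluster within chromosome 8 was not tested. The ratio varied little with the level of the gene, and the median FPKM ratio to WT was between 0.664 and 0.715 in each of 6 classes of WT level. Membership varied more with level. Members made up 0% of the genes from 0.4 to 2 FPKM in WT, 16.8% of those from 20 to 50 FPKM and 12.9% of those from 50 FPKM up. The 1 added to each FPKM shrinks the differences of low genes, and its part in this course was not tested.

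**Figure D2:**
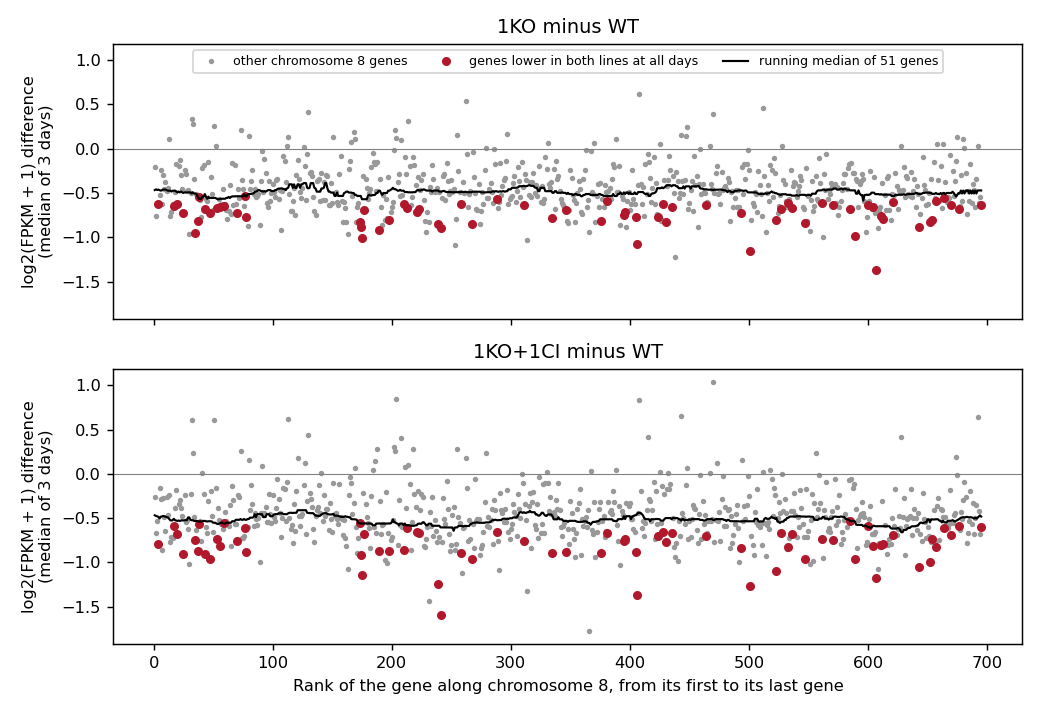
Genes of chromosome 8 that were high enough in WT, in their order along the chromosome (x axis, rank), with the median over 3 days of the difference in log2(FPKM + 1) from WT (y axis) for 1KO (top) and 1KO+1CI (bottom). Red points are the 69 members, grey points the other 626 genes and the line is a running median of 51 genes, which stays below 0 along the whole chromosome.

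The members lay in the lower part of this distribution. Over the 695 genes the median ratio to WT was 0.674 with an interquartile range of 0.602 to 0.761, and it was 0.683 for the 626 genes that were not members and 0.578 for the 69 that were. Of the 695 genes, 655 had a median difference below 0, against 5720 of the 11498 genes high enough in WT on other chromosomes. The 3 members closest to the threshold were *Cog4*, *Babam1* and *4921524J17Rik*, with a least difference of −0.50 each, and the 3 genes just outside it were *Abhd8*, *Rpl13* and *Brd7*, also at −0.50 after rounding. All of these lie on chromosome 8. A few genes of the chromosome went the other way, and by the median of the 6 differences the highest were *Cdh11* (0.91), a mesenchymal cadherin, *Neto2* (0.64), *Cpe* (0.62) and the basement membrane collagen gene *Col4a1* (0.50), which were picked out after their values were seen.

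When the difference of each gene was taken relative to the median of its own chromosome, a choice made after seeing the data, 14 genes met the rule. None of the 69 members on chromosome 8 was among them, and all 13 members on other chromosomes were, together with *Abcg2* on chromosome 6. The medians subtracted were −0.56 to −0.48 for chromosome 8 and −0.09 to 0.13 for the other autosomes and the X chromosome. A chromosome 8 gene thus had to fall 0.5 or more beyond its median. This split follows in large part from the subtraction and tests nothing.

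By textbook role the chromosome 8 members covered many housekeeping functions, and they are described here by role for orientation, with no group tested. Of the 82 genes, 1 was on any of 20 lists of pluripotency, germline, imprinted, epiblast, endoderm, metabolic and stress genes, namely *Igf2* on chromosome 7, among 23 genes of its list, that of paternally expressed imprinted genes, that were high enough in WT. The lists are short, with 0 to 27 genes each among the 12214 high enough in WT. Few members could thus be on them, and the count does not show that the members avoid these categories. The members' mean level over the 9 libraries ran from 0.726 to 111 FPKM with a median of 15.7, and 78 of the 82 are protein coding.

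Among genes that act on DNA and the cell cycle, *Fanca*, of the Fanconi anaemia core complex, was at 13.7, 16.8 and 11.4 FPKM in WT, against 7.58, 7.99 and 6.02 in 1KO and 6.66, 5.84 and 5.24 for 1KO+1CI at days 0, 2 and 4. Its lowest WT library was above its highest mutant library. *Babam1* of the BRCA1-A complex was at 40.4, 40.4 and 46.6 FPKM in WT, against 24.7, 27.0 and 31.6 in 1KO and 25.3, 28.2 and 25.8 for 1KO+1CI. *Cdc16*, a subunit of the anaphase-promoting complex, was at 53.1, 53.7 and 68.9 FPKM in WT, against 31.9, 33.4 and 45.5 in 1KO and 27.8, 33.8 and 41.0 for 1KO+1CI, and *Terf2*, the telomere-binding shelterin protein, was at 13.8, 15.1 and 13.7 FPKM in WT, against 7.69, 9.18 and 8.41 in 1KO and 9.31, 9.02 and 8.19 for 1KO+1CI. The WT and mutant libraries of these 3 genes did not overlap either. *Cenpu*, a centromere protein gene, overlaps *Primpol*, which encodes a primase-polymerase, on the opposite strand, and since the strand setting of the counting is not given, reads in the stretch they share cannot be told apart. *Cenpu* was at 11.8, 9.73 and 10.1 FPKM in WT, against 5.82, 5.65 and 5.29 in 1KO and 7.79, 6.30 and 4.86 for 1KO+1CI, and *Primpol* was at 11.6, 8.86 and 7.38 FPKM in WT, against 4.15, 4.36 and 4.88 in 1KO and 5.58, 4.33 and 3.45 for 1KO+1CI.

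Other members make, move or modify RNA and proteins. *Nudt21*, which encodes a subunit of the cleavage factor that sets 3′ ends of mRNAs, had the highest mean level of the 82 genes, with 156, 128 and 162 FPKM in WT, against 98.4, 78.0 and 104 in 1KO and 97.6, 84.3 and 92.9 for 1KO+1CI at days 0, 2 and 4. *Prmt7*, an arginine methyltransferase, was at 81.8, 47.8 and 60.7 FPKM in WT, against 39.7, 26.9 and 34.8 in 1KO and 37.7, 26.2 and 25.6 for 1KO+1CI. Its WT level was highest at day 0, and every mutant library was below every WT library. *Fto*, a demethylase of N6-methyladenosine in RNA, was at 30.8, 26.1 and 23.2 FPKM in WT, against 15.9, 14.3 and 14.8 in 1KO and 17.6, 14.98 and 14.9 for 1KO+1CI. *Usp10*, a deubiquitinase, was at 87.6, 78.9 and 79.2 FPKM in WT, against 58.5, 46.1 and 45.8 in 1KO and 48.3, 45.5 and 44.9 for 1KO+1CI. *Nup133* of the nuclear pore was at 40.1, 39.9 and 39.9 FPKM in WT, against 27.1, 26.9 and 25.2 in 1KO and 26.7, 25.7 and 22.5 for 1KO+1CI, nearly flat over the days in WT. *Tnpo2*, a nuclear import receptor, was at 65.6, 75.8 and 56.8 FPKM in WT, against 43.2, 43.9 and 33.6 in 1KO and 38.4, 41.1 and 35.8 for 1KO+1CI, and overlaps the member *A230103J11Rik* on the opposite strand, so reads may be shared. *Rfwd3*, a ubiquitin ligase that acts at stalled replication forks, was at 52.1, 61.5 and 62.6 FPKM in WT, against 33.3, 39.4 and 37.8 in 1KO and 29.3, 36.2 and 37.1 for 1KO+1CI. Its day 0 library was the lowest in each line.

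Mitochondrial and membrane traffic genes were among the members too. *Vdac3*, a channel of the outer mitochondrial membrane, was at 103, 136 and 124 FPKM in WT, against 65.2, 69.5 and 72.5 in 1KO and 55.5, 61.3 and 74.2 for 1KO+1CI. *Timm44*, of the inner membrane import motor, was at 48.2, 45.9 and 49.5 FPKM in WT, against 31.0, 30.1 and 31.2 in 1KO and 29.4, 30.0 and 30.6 for 1KO+1CI. In both, all WT libraries lay above all mutant libraries. *Dhodh*, the mitochondrial enzyme of pyrimidine synthesis, was at 26.7, 24.1 and 25.9 FPKM in WT, against 14.5, 14.7 and 12.1 in 1KO and 14.7, 11.9 and 10.8 for 1KO+1CI. *Gpt2*, the mitochondrial alanine aminotransferase, was at 17.3, 34.6 and 25.9 FPKM in WT, against 6.89, 20.1 and 11.8 in 1KO and 6.97, 12.8 and 8.47 for 1KO+1CI, and here the ranges of the lines overlapped, as the 1KO library of day 2 was above the WT library of day 0. *Cog2* and *Cog4* encode subunits of the same Golgi tethering complex. *Cog2* was at 14.8, 17.5 and 17.7 FPKM in WT, against 10.1, 11.0 and 9.18 in 1KO and 8.79, 10.7 and 10.6 for 1KO+1CI, and *Cog4* was at 40.0, 35.9 and 35.7 FPKM in WT, against 25.9, 25.1 and 21.5 in 1KO and 23.6, 24.8 and 19.6 for 1KO+1CI. *Rab8a*, a GTPase of secretory traffic, was at 41.0, 38.3 and 48.0 FPKM in WT, against 26.7, 24.3 and 28.5 in 1KO and 23.8, 24.2 and 27.9 for 1KO+1CI. The 3 WT libraries were above the 6 mutant libraries for each of these 3 genes.

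Regulators of transcription and signalling on chromosome 8 included *Sall1*, a zinc finger factor, at 56.9, 65.5 and 38.8 FPKM in WT, against 32.9, 43.5 and 20.04 in 1KO and 34.6, 45.2 and 17.5 for 1KO+1CI. Its lowest level in each line was that of day 4. *Jund*, a subunit of the AP-1 factor, was at 62.8, 56.9 and 65.4 FPKM in WT, against 40.0, 31.1 and 33.8 in 1KO and 26.5, 30.8 and 33.0 for 1KO+1CI, and *Ier2*, an immediate early gene, was at 101, 103 and 83.7 FPKM in WT, against 69.8, 58.4 and 40.2 in 1KO and 61.3, 53.5 and 44.5 for 1KO+1CI. *Map2k7*, a kinase upstream of JNK, was at 26.7, 26.6 and 22.1 FPKM in WT, against 16.8, 17.1 and 11.2 in 1KO and 17.5, 17.9 and 12.8 for 1KO+1CI. Both WT and mutant values of *Map2k7* were lowest at day 4. *Mef2b* lies within the span of *Gm45929*, an entry that RefSeq alone lists, and both overlap *Borcs8*, so their counts may hold the same reads. *Mef2b* was at 7.02, 18.8 and 14.96 FPKM in WT, against 2.46, 11.8 and 7.59 in 1KO and 1.23, 8.16 and 4.31 for 1KO+1CI, and *Gm45929* was at 7.40, 18.5 and 14.8 FPKM in WT, against 3.68, 12.2 and 7.56 in 1KO and 2.03, 8.67 and 5.69 for 1KO+1CI. *Zfp866* and *Zfp869*, neighbouring zinc finger genes whose sequences may share reads, were at 4.20, 8.88 and 7.89 FPKM in WT, against 2.11, 5.18 and 4.74 in 1KO and 2.42, 5.24 and 4.53 for 1KO+1CI for *Zfp866* and at 8.28, 11.0 and 15.1 FPKM in WT, against 4.68, 7.13 and 7.93 in 1KO and 5.32, 6.37 and 9.17 for 1KO+1CI for *Zfp869*. In all, 26 of the 82 genes overlap another gene of the table.

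The remaining 13 members lie on 9 chromosomes with none within 1 Mb of another, and they were named because of their position, after their values were seen. Their median FPKM ratio to WT was 0.443, while it was 1.00 over the 11498 genes of these and all other chromosomes besides 8, and that gap is what the rule selects. The promoters of 2 of them and of *Rfwd3* are printed to show how CpG content varies, over a shorter stretch than that of the medians given further on. Each is the 250 bases before the RefSeq start on GRCm38.p6, in the direction of transcription, with CG in capitals. They were taken from genes with a single RefSeq start and no annotated exon in the window, for *As3mt* chr19:46707208-46707457 on the plus strand, for *Capsl* chr15:9435778-9436027 on the plus strand and for *Rfwd3* chr8:111300223-111300472 on the minus strand, and hold 4, 6 and 22 CpG.
As3mt: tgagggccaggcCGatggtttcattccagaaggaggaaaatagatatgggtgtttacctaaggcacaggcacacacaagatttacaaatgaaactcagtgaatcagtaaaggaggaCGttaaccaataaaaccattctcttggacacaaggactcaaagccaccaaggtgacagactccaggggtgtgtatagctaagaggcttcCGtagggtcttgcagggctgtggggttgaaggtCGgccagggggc
Capsl: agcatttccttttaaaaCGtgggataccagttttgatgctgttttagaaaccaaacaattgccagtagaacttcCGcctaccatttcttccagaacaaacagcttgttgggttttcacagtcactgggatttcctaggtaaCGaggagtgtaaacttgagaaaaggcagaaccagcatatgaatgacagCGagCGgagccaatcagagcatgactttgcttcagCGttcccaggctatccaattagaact
Rfwd3: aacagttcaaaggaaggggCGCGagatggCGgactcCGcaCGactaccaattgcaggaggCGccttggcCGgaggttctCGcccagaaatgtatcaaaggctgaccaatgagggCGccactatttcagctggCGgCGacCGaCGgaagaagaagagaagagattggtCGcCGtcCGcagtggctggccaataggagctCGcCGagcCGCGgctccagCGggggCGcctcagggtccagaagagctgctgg

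*As3mt* (chr19:46707458-46741099, plus strand) encodes the arsenite methyltransferase and was at 4.90, 4.52 and 3.44 FPKM in WT, against 1.61, 1.57 and 1.02 in 1KO and 1.28, 1.58 and 0.975 for 1KO+1CI at days 0, 2 and 4. All mutant values were under all WT values, and it was the only gene that met the rule with a threshold of 1 in place of 0.5. *Enpp3* (chr10:24772406-24842823, minus strand), which encodes an ectonucleotidase, was at 41.0, 58.0 and 37.9 FPKM in WT, against 14.2, 29.3 and 21.4 in 1KO and 12.8, 27.7 and 22.1 for 1KO+1CI. All 3 lines were highest at day 2. *Capsl* (chr15:9436028-9466038, plus strand) encodes a calcium-binding protein and was at 5.39, 12.7 and 8.53 FPKM in WT, against 3.14, 5.31 and 4.08 in 1KO and 2.22, 3.70 and 3.63 for 1KO+1CI. *Plekhb1* (chr7:100642892-100662414, minus strand), with a pleckstrin homology domain, was at 6.09, 7.23 and 5.95 FPKM in WT, against 3.22, 4.13 and 3.86 in 1KO and 2.53, 4.28 and 3.39 for 1KO+1CI, and *Cmc1* (chr9:118064522-118150177, minus strand), a mitochondrial factor for cytochrome c oxidase, was at 8.03, 5.98 and 8.26 FPKM in WT, against 3.90, 3.47 and 5.28 in 1KO and 4.14, 3.07 and 5.17 for 1KO+1CI. For these 5 genes the lowest WT library was above the highest of the 6 mutant libraries. The same held for 58 of the 69 members on chromosome 8, hence for 63 of 82, and for 3.36% of all genes, and it follows in large part from the rule.

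For the other 8 members the WT and mutant libraries overlapped over the days, although WT was the highest line at each single day by the rule. *Igf2* (chr7:142650766-142666816, minus strand), the imprinted growth factor gene that is expressed from the paternal allele, was at 49.6, 11.2 and 16.7 FPKM in WT, against 22.0, 3.78 and 3.30 in 1KO and 25.9, 4.38 and 6.11 for 1KO+1CI, highest at day 0 in each line. *H19*, its maternally expressed neighbour, was at 52.99, 6.80 and 7.98 FPKM in WT, against 516, 86.7 and 184 in 1KO and 197, 87.9 and 190 for 1KO+1CI. The 2 neighbours thus differed from WT in opposite directions at each day. *Gli1* (chr10:127329882-127341974, minus strand), a transcriptional effector and target of Hedgehog signalling, was at 18.5, 22.2 and 4.62 FPKM in WT, against 11.0, 9.27 and 1.67 in 1KO and 8.12, 7.51 and 2.06 for 1KO+1CI. *Ooep* (chr9:78376109-78378725, minus strand), of the subcortical maternal complex of the oocyte, was at 32.8, 23.2 and 7.38 FPKM in WT, against 15.9, 11.9 and 3.41 in 1KO and 13.9, 7.74 and 2.55 for 1KO+1CI. *Pax6* (chr2:105668900-105697364, plus strand), a transcription factor of eye and neural development, was at 5.88, 2.99 and 1.64 FPKM in WT, against 3.45, 1.27 and 0.487 in 1KO and 2.56, 0.987 and 0.520 for 1KO+1CI. All 3 were lowest at day 4 in all 3 lines.

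*Smagp* (chr15:100621339-100636940, minus strand) encodes a small membrane protein and was at 23.6, 29.8 and 12.8 FPKM in WT, against 9.63, 17.1 and 7.84 in 1KO and 7.32, 14.6 and 6.55 for 1KO+1CI. *Cryz* (chr3:154596711-154623182, plus strand), quinone oxidoreductase or zeta-crystallin, was at 11.3, 6.06 and 8.90 FPKM in WT, against 7.15, 3.63 and 5.41 in 1KO and 7.17, 3.27 and 3.98 for 1KO+1CI. *Gm10451* (chr12:76444497-76451336, plus strand), a long noncoding RNA gene, was at 5.68, 13.1 and 8.04 FPKM in WT, against 3.07, 8.42 and 4.35 in 1KO and 2.15, 8.17 and 2.94 for 1KO+1CI. *Cryz* was lowest at day 2 in all lines, whereas *Smagp* and *Gm10451* were highest then. *Hsd17b1* (chr11:101078411-101080527, plus strand), the enzyme that reduces estrone to estradiol, was the lowest of the 82 genes, at 0.652, 2.34 and 1.28 FPKM in WT, against 0.160, 0.535 and 0.331 in 1KO and 0.0940, 0.847 and 0.297 for 1KO+1CI. It was the one member with whole reads that could be recovered, 18, 76 and 36 in WT, against 6, 15 and 10 in 1KO and 3, 24 and 8 for 1KO+1CI, each within 0.14 of a whole number. At 3 to 24 reads in the mutant lines its values rest on few counts, and the FPKM ratio of 1KO+1CI to 1KO at day 0, 0.587, had an exact 95% interval from 0.0950 to 2.75, which covers counting error only.

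**Figure D3:**
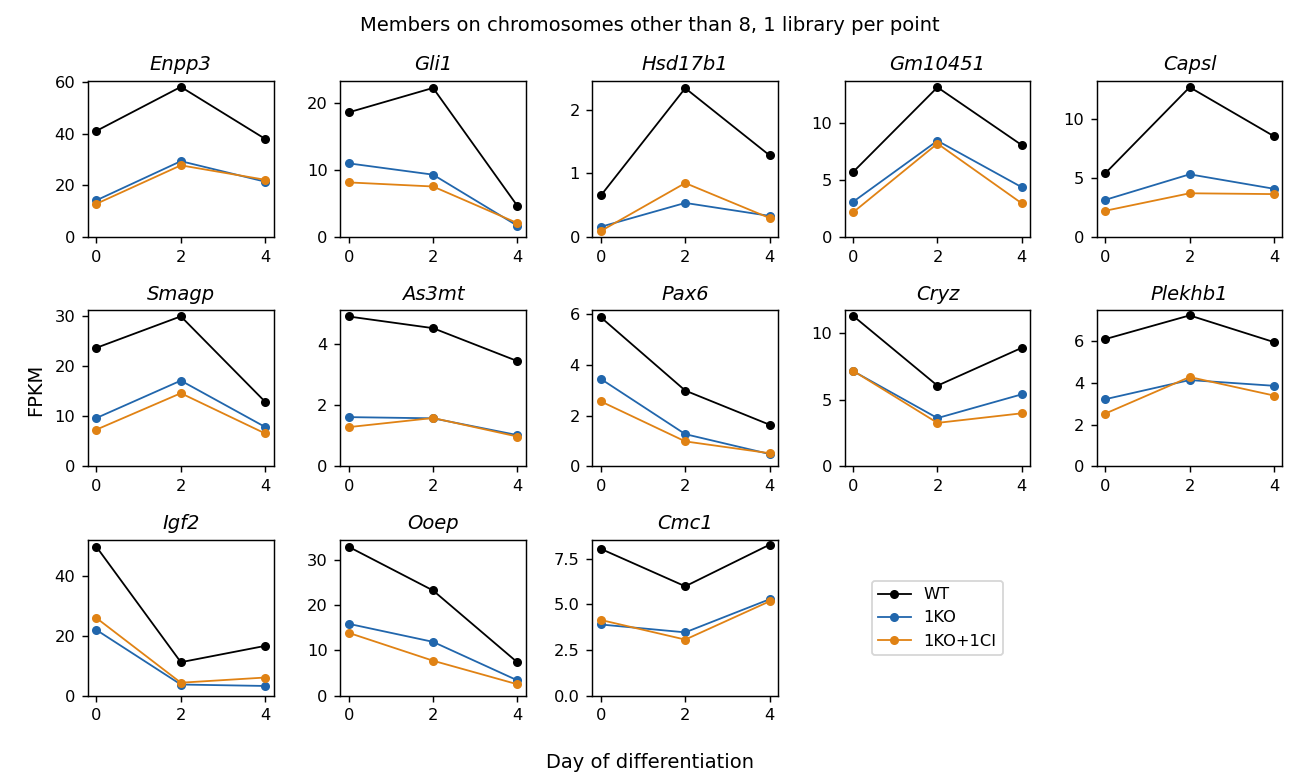
FPKM (y axis, from 0, a scale for each gene) of the 13 members on chromosomes other than 8 at days 0, 2 and 4 (x axis) in WT (black), 1KO (blue) and 1KO+1CI (orange), 1 library per point. The WT point is the highest at each day for each gene, and the lines follow a like course over the days in most genes, with *Gli1* and *As3mt* among those whose highest day differs.

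The rule did not use the comparison of the mutant lines with each other, although both had to lie below WT. Genes that lay less than 0.5 below WT in 1KO+1CI at any day could not be members. The comparison therefore cannot answer whether the inactive protein raised genes towards WT. With 1 line per genotype and 1 library per condition, it describes a difference between 2 lines, and an effect of the protein was not tested. The median 1KO+1CI minus 1KO difference in log2(FPKM + 1) over the 82 genes was −0.06, −0.03 and −0.10 at days 0, 2 and 4, and over the 12214 genes high enough in WT it was −0.03, 0.01 and −0.00. At day 0, 3 members were lower by 0.5 or more (3.66%, against 3.62% of all genes) and 0 were higher (2.43% of all genes). At day 2, 2 were lower (2.44%, against 1.67%) and 0 higher (2.32% of all genes), and at day 4, 1 was lower and 1 higher (1.22% each, against 3.44% and 4.36%). The shares past 0.5 at days 0 and 2 were near those of all genes, and at day 4 they were lower. No member passed 0.5 in the same direction at all 3 days. Below 0 at all 3 days were 24 members (29.3%, against 16.4% of the 12214 genes), and 6 were above (7.32%, against 15.9%). At day 4, 61 of the 82 members were below 0 (74.4%, against 50.6%). The shares were smaller at days 0 and 2, with 61.0% and 59.8% of the members, against 54.5% and 46.5%. On chromosome 8 as a whole the median was −0.05, −0.00 and 0.00, each close to that of all genes.

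Among single members the 1KO+1CI cells were lowest relative to 1KO in *Mef2b*, with differences of −0.63, −0.48 and −0.69 at the 3 days, and *Gm45929*, which overlaps it, followed with −0.62, −0.44 and −0.36. *Gpt2* was at 0.01, −0.61 and −0.43, *Gm10451* at −0.37, −0.04 and −0.44, and *Capsl* at −0.36, −0.42 and −0.13. At the other end, *Wwox*, a WW domain oxidoreductase, was at 0.37, 0.45 and −0.10, and *Nek1*, a kinase of cilia and the DNA damage response, at 0.35, 0.26 and −0.35. *Igf2* was at 0.23, 0.17 and 0.73, *Cars2*, the mitochondrial cysteinyl-tRNA synthetase, at −0.08, 0.21 and 0.22, and *Zfp869* at 0.15, −0.14 and 0.19. Only *Mef2b* among the 82 genes passed 0.5 at more than 1 day.

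Nor did the rule use the course over the days within a line. The members did not share a course. Over the 69 genes on chromosome 8, the median difference of day 4 from day 0 was −0.01 for WT, 0.03 for 1KO and −0.07 for 1KO+1CI, close to 0.00, 0.01 and 0.04 over the genes high enough in WT. In WT, 12 of the 82 members were higher by 0.5 or more at day 4 (14.6%, against 11% of all genes) and 11 were lower (13.4%, against 14.7%). In 1KO the counts were again 12 and 11, beside 14.5% and 14.1% of all genes, and in 1KO+1CI they were 10 and 15, beside 16.2% and 14.3%. From day 0 to day 2, 13 members were higher and 5 lower in WT (11.3% and 14.7% of all genes), 12 and 5 in 1KO (9.49% and 11.1%), and 16 and 6 in 1KO+1CI (11.5% and 10.6%). The median day 2 minus day 0 difference over the 82 genes was 0.02 for WT, 0.07 for 1KO and 0.07 for 1KO+1CI, and that of day 4 was −0.04, 0.02 and −0.07. The day with the highest level was day 0 for 29, day 2 for 32 and day 4 for 21 of the 82 genes in WT (35.4%, 39.0% and 25.6%, against 31.2%, 34.7% and 34.1% of the 12214 genes). The same highest day in all 3 lines was found for 45 members (54.9%, against 44.1%).

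The 13 members on other chromosomes were mixed, with a median day 4 minus day 0 difference of −0.31 (WT), −0.27 (1KO) and −0.14 (1KO+1CI). Of the 13, 5, 4 and 5 were lower at day 4 by 0.5 or more in these lines (38.5%, 30.8% and 38.5%, against 14.7%, 14.1% and 14.3% of all genes). Higher by 0.5 or more were 1, 1 and 2 (7.69%, 7.69% and 15.4%, against 11.0%, 14.5% and 16.2%). Above 0 were 4, 6 and 6. The same highest day in all lines was found for 11 of the 13 (84.6%, against 44.1% of the 12214 genes high enough in WT). At day 4, *Ooep* differed from day 0 by −2.01 (WT), −1.94 (1KO) and −2.07 (1KO+1CI). *Gli1* differed by −1.80, −2.16 and −1.58, and *Igf2* by −1.52, −2.42 and −1.92. All 3 lines were thus lower at day 4 in these genes, by amounts that differed most for *Igf2*. On chromosome 8, *Mef2b* was higher at day 4 by 0.99, 1.31 and 1.25 and *Gm45929* by 0.91, 0.87 and 1.14, whereas *Adad2*, a germ cell gene with an adenosine deaminase domain, was higher by 0.82 in WT and lower in 1KO and 1KO+1CI, with −0.28 and −0.37. *Adad2* was at 3.44, 5.52 and 6.83 FPKM in WT, against 1.37, 1.53 and 0.949 in 1KO and 1.30, 1.88 and 0.786 for 1KO+1CI, and its libraries did not overlap between WT and the mutant lines. In all 3 lines together, 5 members were higher by 0.5 or more at day 4, namely *Mef2b*, *Gm45929*, *Pdf*, *Zfp866* and *Zfp869* (6.10%, against 3.87% of all genes), and 7 were lower, namely *Gli1*, *Igf2*, *Ooep*, *Pax6*, *Sall1*, *Tango6* and *4921524J17Rik* (8.54%, against 5.71%).

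**Figure D4:**
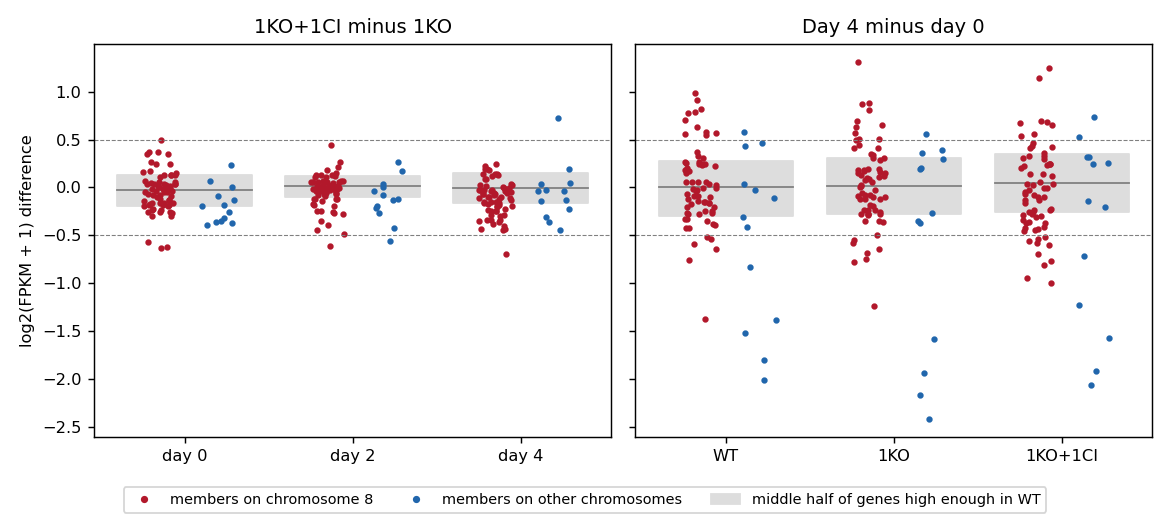
Differences in log2(FPKM + 1) (y axis) that the rule did not use, 1KO+1CI minus 1KO at each day (left) and day 4 minus day 0 in each line (right), 1 point per member, red on chromosome 8 and blue elsewhere. Grey boxes span the interquartile range and the grey line the median of the 12214 genes high enough in WT, and dashed lines mark −0.5 and 0.5; all but 3, 2 and 2 members lie between the dashed lines on the left at days 0, 2 and 4.

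The CG content of the members' promoters was near that of other genes on chromosome 8 and lower on other chromosomes. RefSeq promoters of 300 bases, from 250 before to 50 after the start, were matched by symbol for 65 of the 82 genes. The median number of CG dinucleotides was 20 over the members, 22 over 54 members on chromosome 8 and 10.5 over 11 members elsewhere, against 21 over 9667 promoters of genes high enough in WT and 22 over 479 such promoters on chromosome 8. Fewer than 5 CG were held by 3 members (4.62%) and by 4.45% of those 9667 promoters. Over the same 300 bases *As3mt* held 9 CG, *Capsl* 6 and *Rfwd3* 31, which lie on both sides of these medians. The stretches printed above are 250 bases, so their counts are not to be set against the medians. Methylation of these promoters was not measured in the files used here.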

How the data were processed

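RNA-seq of WT, 1KO and 1KO+1CI cells at days 0, 2 and 4 gave 9 libraries, 1 per condition. The FPKM values of genes are those the authors deposited. Their tools were Trim Galore for trimming, HISAT2 for mapping to mm10, SAMtools, and HOMER for counting and normalization. The sources used here give neither versions nor the strand setting, and poly(A) RNA was selected before sequencing. The deposited table of repeat copies was not used. Of 15095 entries, 21 were left out, namely 1 named 0 and 20 with a date in place of a symbol, and none of the values was 0.

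Positions came from GENCODE M21 (14856 genes), then from RefSeq (191), and 27 genes had none. Differences are in log2(FPKM + 1), the pseudocount of 1 understates changes of low genes, and no test was run. A fit of line and day was left out because the differences that chose the members enter its residuals. The members and the gene lists were chosen with earlier results of these data known. Names were drawn from members on a list, with a member within 1 Mb, among the 15 highest, the 5 extremes of 1KO+1CI minus 1KO or the 3 of day 4, or next to the threshold, and other genes in the text were picked with their values known. Alternatives were other pseudocounts, thresholds and scalings, a minimum of 1 FPKM, the mean and leaving out a day. Depth was searched as the read number at which FPKM times length is nearest to whole. Python 3.11.15, numpy 2.4.6, pandas 2.3.3, scipy 1.17.1 and matplotlib 3.10.9 were used, and the scripts were tested on simulated data. Values of 2 members are not reported here.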

Additional observations from a re-analysis of the deposited data

Results flagged for a closer look

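*Slc9a5*, a sodium-proton exchanger gene on chromosome 8, differed in direction over the days between lines. Its day 4 minus day 0 difference in log2(FPKM + 1) was −0.76 for WT, 0.50 for 1KO and 0.14 for 1KO+1CI. The difference between lines was not tested, since each condition has 1 library.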

How the results depend on the processing

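The number of members depended on the settings, and 82 genes (69 on chromosome 8 and 13 elsewhere) became the following. A pseudocount of 0.1 gave 147, with 44 elsewhere, and 0.01 gave 165, with 107 on chromosome 8 and 58 elsewhere. A threshold of 0.25 gave 390 (283 and 107), 0.75 gave 11 (7 and 4) and 1 gave 1 (0 and 1). Without day 0 there were 173 (131 and 42), without day 2 154 (111 and 43) and without day 4 257 (151 and 106). Centring each chromosome on its own median, chosen after seeing the data, gave 14, with 0 on chromosome 8, which follows in large part from the medians subtracted. Scaling to a common sum (TPM) gave 71 and median-ratio scaling 80, of which 65 and 76 were members. Of 54 recomputed medians 52 stayed within the exact binomial 95% interval of the reported median, taken from the order of the members' values, and those outside were 0.17 for day 2 minus day 0 in 1KO under TPM (reported 0.07) and −0.054, the mean of 1KO+1CI minus 1KO at day 2 (reported median −0.03). No paired analysis was possible because each condition has 1 library, so that no replicate number repeats, and no value comes from a test. A fit of line and day, in which the days pair the lines, was left out and not run. With 1 library per condition, variation between cultures is unknown, and the cause of these shifts was not tested.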
